A study of Mus musculus with 4 samples.

Results

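The genes examined here are 33 genes of glycolysis and of lactate and pyruvate handling. They were taken by name and not by value from the 54532 genes of the deposited table, but earlier results of these data were known. They occupy 34 rows because Aldoa is listed under 2 identifiers. The RNA came from naive CD4+ T cells of wild-type mouse spleen that were cultured for 3 days under conditions that favour Tfh cells, or T follicular helper cells, which assist B cells in antibody responses. In 2 libraries the culture contained DMF (dimethyl fumarate), an ester of fumaric acid that reacts with protein cysteines and activates the transcription factor Nrf2, and in 2 control libraries it contained none. The labels give neither the dose of DMF nor the agents of the Tfh culture, and they do not say whether the replicates are separate cultures or mice. The spread behind each p-value is therefore that of these libraries alone and could be technical.

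Glycolysis splits glucose into pyruvate. GLUT transporters bring glucose in, hexokinases trap it, phosphofructokinase sets the pace, and the lower enzymes from glyceraldehyde-3-phosphate dehydrogenase to pyruvate kinase harvest ATP. Lactate dehydrogenase turns pyruvate into lactate, which leaves through monocarboxylate transporters, while the mitochondrial pyruvate carrier takes pyruvate into mitochondria and pyruvate dehydrogenase kinases hold back its oxidation. Activated T cells run this pathway fast, and the transcription factor HIF-1, whose oxygen-regulated subunit is encoded by Hif1a, switches on many of its genes. GAPDH protein is a known target of fumarate esters, which modify its active cysteine; transcript levels do not measure that.

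Values are FPKM, which divides the fragments of a gene by its length and by a library size, so levels can be set side by side per length of the deposited gene model. From them whole reads were recovered, 17134385 and 17516953 in DMF replicates 1 and 2, against 17171199 and 15900118 in control replicates 1 and 2. The library sizes implied by the FPKM differ from these totals. They were 1.068 and 1.066 times the total in DMF replicates 1 and 2. In control replicates 1 and 2 they were 1.032 and 0.876 times the total. FPKM of control replicate 2 therefore stand higher against the other libraries than its reads over their own total do. Control replicate 2 differed most from the rest: the SD over genes of the log2 gap was 0.32 between the DMF libraries and 0.74 between the controls. Ribosomal protein genes took 6.15% and 6.16% of the reads in DMF replicates 1 and 2, against 6.76% and 13.6% in control replicates 1 and 2. All 10 T cell markers examined were detected and tested, with summed levels of 2348 and 2278 FPKM in the DMF libraries, against 2511 and 4522 FPKM in the controls. Of these markers 8 lay below both controls and 0 above, against 26.8% and 26.4% of all tested genes. Their median log2 difference was -0.68, against -0.01 over all tested genes. Without control replicate 2 the medians were -0.25 and 0.01 in the same order. Cd4 itself was at 103 and 100.3 FPKM in the DMF libraries, against 128 and 105 FPKM in the controls.

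The DMF libraries held less of the lactate exporter Slc16a3 and of the minor enolase and aldolase forms Eno3 and Aldoc, and more of the other monocarboxylate transporter, Slc16a1. The abundant enzymes of the chain, from Aldoa to Pkm and Ldha, lay modestly below both controls as deposited, by an amount that control replicate 2 largely set, and above control in the mean under quantile normalization. Glucose transporters, hexokinases and Hif1a overlapped between the groups or differed by little. Of 32 members with a mean FPKM of at least 1, limma called 0 at an adjusted p under 0.05, as it called 0 of the 12166 genes tested (0%). At an unadjusted p under 0.05 it listed 3 members as lower (Eno3, Slc16a3 and Aldoc), 9.38% of those tested, against 6.31% of all genes. It listed 1 as higher (Slc16a1), 3.12% of those tested, against 3.14%. In either direction these 4 members were 12.5%, against 9.45% of all genes, so the rate was near that of all genes. By voom on the recovered reads 0 genes were called as well, with 1187 of all genes at an unadjusted p under 0.05. Both DMF libraries lay below both controls in 16 members (50% of those tested), against 26.8% of all tested genes, and above both in 4 members (12.5%), against 26.4%. The median log2 difference was -0.20 over the members and -0.01 over all tested genes. Under quantile normalization, which forces the libraries to 1 distribution, the members' median turned to 0.11, against 0.03 over all genes, with 8 members below and 10 above both controls, against 24.1% and 29.7% of all genes. The lean to lower values remained relative to all genes in the other scalings. Reads over their own total, not the implied library size, put 10 members below (31.2%) and 8 above (25%). The shares of all genes were 19.7% and 35.9%, and voom uses the same totals. With the trend on gene length removed 15 lay below (46.9%) and 7 above (21.9%), against 24.8% and 29.5% of all genes. Without control replicate 2 the median was -0.07, against 0.01 over all genes.

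**Figure D1:**
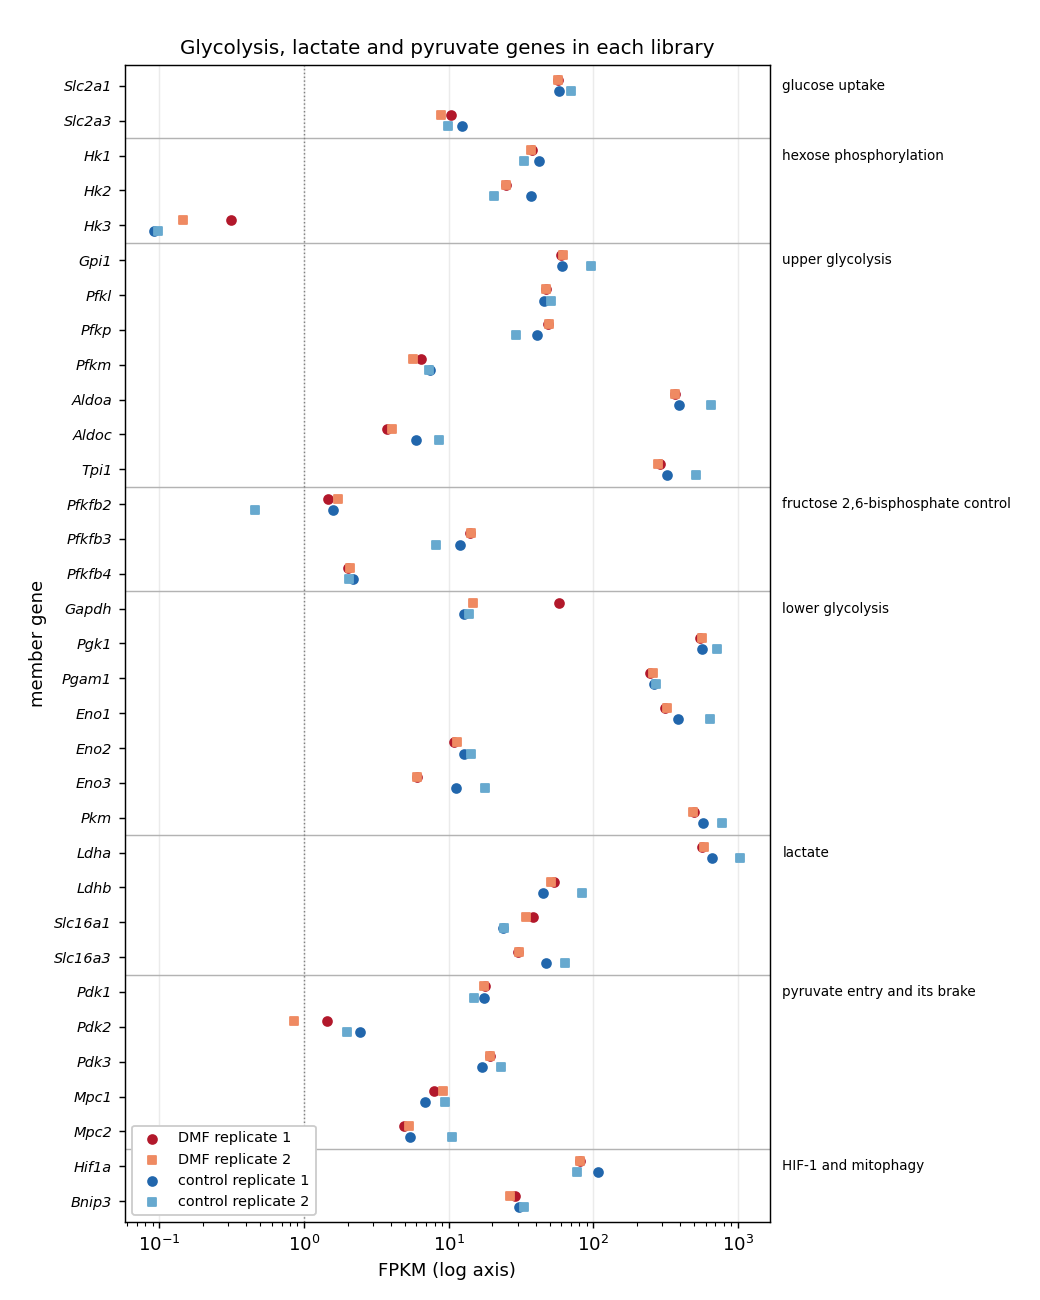
FPKM of each member in each library, on a log axis, ordered by step of the pathway; each row holds the DMF libraries (red, upper points) and the control libraries (blue, lower points), and the dotted line marks the mean level of 1 FPKM needed for testing. Slc16a3, Eno3 and Aldoc sit lower in both DMF libraries, Slc16a1 sits higher, and control replicate 2 (light blue squares) lies to the right of the other libraries for Ldha, Aldoa, Eno1 and Tpi1.

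Lactate leaves T cells mainly through MCT1, encoded by Slc16a1, and MCT4, encoded by Slc16a3, a lower-affinity carrier of highly glycolytic cells that is induced by HIF-1. Slc16a3 (ENSMUSG00000025161, GRCm38 chr11:120948480-120960868, plus strand) was at 30.3 and 30.7 FPKM in DMF replicates 1 and 2, against 47.4 and 63.8 FPKM in control replicates 1 and 2. Slc16a1 (ENSMUSG00000032902, GRCm38 chr3:104638668-104658462, plus strand) was at 38.4 and 34.4 FPKM in the DMF libraries, against 23.7 and 24.4 FPKM in the controls. The groups did not overlap for either gene. By FPKM the order of the pair turned: Slc16a1 was the higher in both DMF libraries and Slc16a3 in both controls. By reads, Slc16a1 made up 51.3% and 48.2% of the pair in DMF replicates 1 and 2, against 29.4% and 24.1% in control replicates 1 and 2. Its lead in DMF replicate 2 thus rested on the deposited gene lengths, whereas its lower share in both controls did not. The limma difference, DMF minus control on the log2(FPKM + 1) scale, was -0.83 ± 0.23 for Slc16a3 (SE, n = 2 each, adjusted p = 0.413) and 0.58 ± 0.18 for Slc16a1 (adjusted p = 0.481). Slc16a1 made up 54.4% ± 2.16 of the pair's FPKM in the DMF libraries and 30.5% ± 4.01 in the controls (SD, n = 2 each). That share does not depend on scaling between libraries; the difference of 23.9 percentage points ran from 21.0 to 26.7 over 7 alternatives. Its exact two-sided permutation p was 0.333, the smallest that 2 against 2 libraries can give. Neither gene shares a 50-base stretch with another annotated gene.

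Without control replicate 2, limma called 8.28% of all tested genes and 5 of the 32 members. Slc16a3, Eno3, Hk2 and Hif1a were called lower in the DMF libraries, as were 5.51% of all genes, and Slc16a1 higher, as were 2.77%. In that fit the lone control is assumed to vary like the DMF libraries. Slc16a3 differed there by -0.62 (adjusted p = 0.0242) and Slc16a1 by 0.60 (adjusted p = 0.0474). Without control replicate 1 the fit called 61% of all genes and 23 members, with Slc16a3 at -1.04 and Slc16a1 at 0.56 on the log2 scale. Because neither gene overlapped between the groups, leaving out a control could change the size of these differences but not their direction. The count of members called without control replicate 1 reads little against its background.

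The promoters of the 4 members at an unadjusted p under 0.05 are shown, since HIF-1 binds the letters ACGTG or GCGTG and both lactate transporters are described as its targets in some cells. Sequences are from RefSeq promoter tables (build GRCm38.p6), 250 bases before to 50 bases after the start that RefSeq gives, 5′ to 3′ on the gene's strand, with every ACGTG or GCGTG of either strand in capitals. They cover chr11:120948817-120949116 (Slc16a3), chr3:104638414-104638713 (Slc16a1), chr11:70656926-70657225 (Eno3) and chr11:78322823-78323122 (the first of 2 listed for Aldoc), all on the plus strand. RefSeq starts can differ from the deposited gene starts, and the Slc16a3 window lies wholly inside the deposited gene.
Slc16a3: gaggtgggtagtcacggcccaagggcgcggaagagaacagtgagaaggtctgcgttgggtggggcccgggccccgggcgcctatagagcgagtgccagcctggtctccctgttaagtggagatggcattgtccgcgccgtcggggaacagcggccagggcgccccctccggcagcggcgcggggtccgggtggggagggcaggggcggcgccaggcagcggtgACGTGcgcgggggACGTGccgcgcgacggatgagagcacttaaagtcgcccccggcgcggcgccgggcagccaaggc
Slc16a1: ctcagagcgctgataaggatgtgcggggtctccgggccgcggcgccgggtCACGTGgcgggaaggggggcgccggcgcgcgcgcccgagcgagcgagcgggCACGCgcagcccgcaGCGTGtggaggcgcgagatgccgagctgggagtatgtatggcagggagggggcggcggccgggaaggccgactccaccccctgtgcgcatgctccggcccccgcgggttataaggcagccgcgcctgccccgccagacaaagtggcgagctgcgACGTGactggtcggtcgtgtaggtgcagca
Eno3: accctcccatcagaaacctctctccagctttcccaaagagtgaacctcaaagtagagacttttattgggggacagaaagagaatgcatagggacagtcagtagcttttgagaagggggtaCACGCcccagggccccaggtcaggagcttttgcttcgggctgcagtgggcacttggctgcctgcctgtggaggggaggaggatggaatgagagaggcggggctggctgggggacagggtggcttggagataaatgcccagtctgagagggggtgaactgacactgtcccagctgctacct
Aldoc: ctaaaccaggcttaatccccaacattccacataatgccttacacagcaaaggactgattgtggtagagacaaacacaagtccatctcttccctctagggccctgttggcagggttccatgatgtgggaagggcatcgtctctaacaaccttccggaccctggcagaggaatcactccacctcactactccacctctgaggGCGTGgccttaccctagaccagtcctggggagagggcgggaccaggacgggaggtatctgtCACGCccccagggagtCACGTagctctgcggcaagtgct

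ACGTG occurred 2 times in the Slc16a3 window, 3 times in that of Slc16a1, where 2 of the 3 overlap in the palindrome CACGTG, once on the reverse strand in Aldoc and not in Eno3. GCGTG occurred 2 times in Slc16a1, 1 time in Eno3 and 2 times in Aldoc. Among all 32851 promoter windows of this length, 43.8% hold either motif, 19.6% hold ACGTG and 32.4% hold GCGTG, counting both strands. Of the 49 windows of the 32 members found in the table, 79.6% hold either motif. The windows of the members and of all genes were not matched for base composition or level, so this difference was not tested. These are matches of letters, and the transporter that was lower and the one that was higher in the DMF libraries both hold them.

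Monocarboxylate transporters reach the cell surface with an ancillary glycoprotein, basigin (Bsg) or embigin (Emb). Emb was at 14.1 and 13.3 FPKM in DMF replicates 1 and 2, against 33.0 and 46.1 FPKM in control replicates 1 and 2, and its log2 difference of -1.45 ± 0.23 (SE, limma adjusted p = 0.224) was larger in size than that of any member tested. Without control replicate 2 it was -1.21 (adjusted p = 0.0198). Bsg, named after its values were seen, was at 234 and 245 FPKM in the DMF libraries, against 320 and 555 FPKM in the controls. So Slc16a3 and both ancillary genes lay below both controls, and Slc16a1 above. Emb and Bsg belong to a list of 45 other glycolysis and pyruvate genes, of which 28 were tested: 6 lay below both controls and 7 above, against 26.8% and 26.4% of all tested genes, with 0 called. The list's median was -0.07, and 0.0038 without control replicate 2, so as a whole it gave no direction. In the same list Slc2a6, which encodes the sugar transporter GLUT6, was at 13.0 and 13.3 FPKM in the DMF libraries, against 18.9 and 27.5 FPKM in the controls. Slc16a6, a further monocarboxylate transporter, was at 6.37 and 6.32 FPKM in the DMF libraries, against 4.21 and 2.50 FPKM in the controls. Pdp1, which encodes the phosphatase that reactivates pyruvate dehydrogenase, was at 3.55 and 3.74 FPKM in the DMF libraries, against 2.60 and 2.02 FPKM in the controls.

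**Figure D2:**
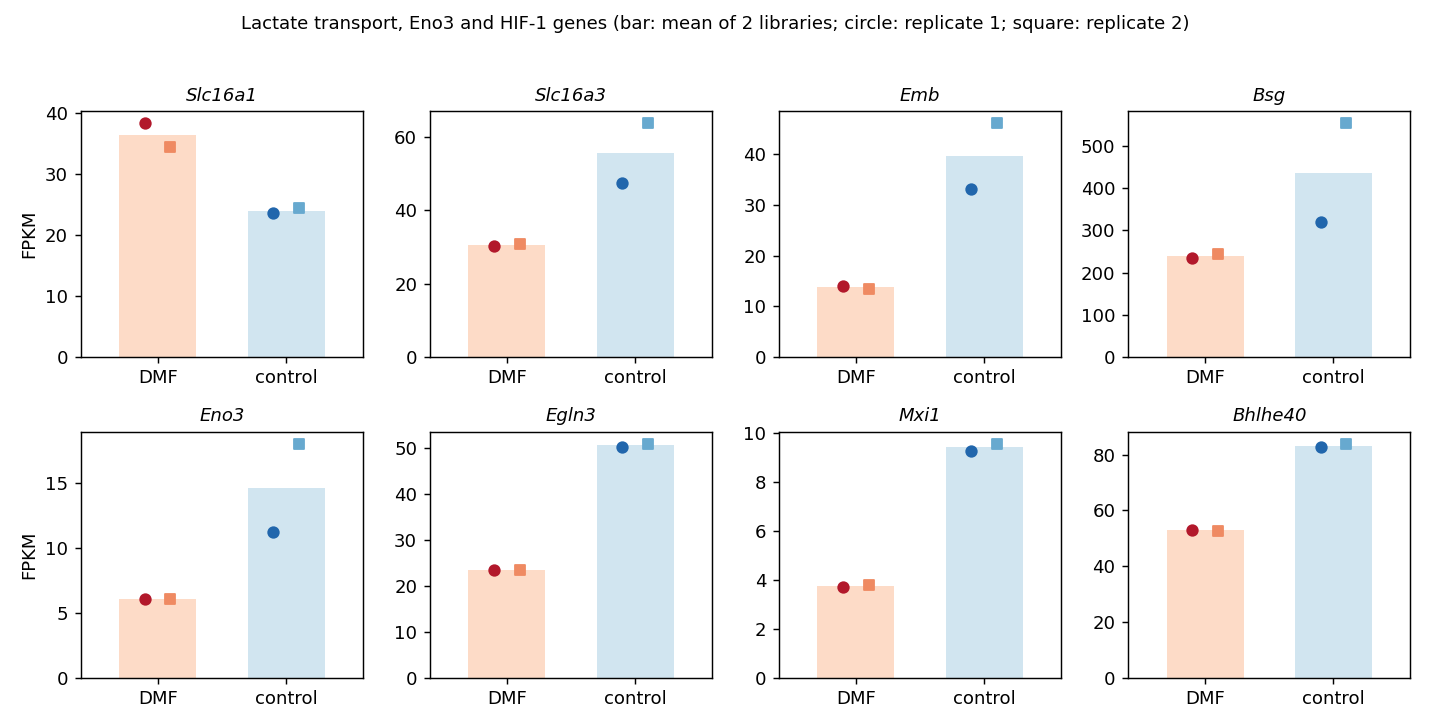
FPKM of lactate transporters, their ancillary genes, Eno3 and genes tied to HIF-1, with DMF left and control right in each panel; bars are means of 2 libraries, circles replicate 1 and squares replicate 2. Slc16a1 stands higher in both DMF libraries and the other 7 genes stand lower, with the controls of Egln3 (50.4 and 51.0), Mxi1 and Bhlhe40 lying close together while those of Slc16a3, Emb, Bsg and Eno3 are spread. The HIF-1 genes shown are a choice from the lists of HIF-1 pathway genes and HIF-1 targets. In these lists 8 and 12 tested genes lay below both controls. A further 3 and 5 lay above, among them Rptor and Hmox1, which are not shown.

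Lactate itself is made by tetramers of the A and B subunits of lactate dehydrogenase. Ldha, the subunit that prevails in glycolytic cells, was the member with the highest mean level over the 4 libraries, at 562 and 582 FPKM in the DMF libraries, against 662 and 1042 FPKM in control replicates 1 and 2. Its log2 difference was -0.54 ± 0.41 (SE, adjusted p = 0.578), which was -0.21 without control replicate 2, -0.86 without control replicate 1 and turned to 0.16 under quantile normalization. Ldhb, the subunit of oxidative tissues, was at 53.9 and 51.5 FPKM in the DMF libraries, between the controls at 45.1 and 83.2 FPKM. The share of Ldhb in the pair's FPKM was 8.74% and 8.13% in the DMF libraries, above the controls at 6.37% and 7.40%, a small shift in make-up of 1.55 percentage points.

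Among the enolases, which make phosphoenolpyruvate, Eno1 is the general form, Eno2 the neuronal and Eno3 the muscle form. Eno3 (ENSMUSG00000060600, GRCm38 chr11:70657202-70662513, plus strand) was at 6.06 and 6.04 FPKM in the DMF libraries, against 11.3 and 18.0 FPKM in control replicates 1 and 2. Its log2 difference of -1.11 ± 0.27 (SE, adjusted p = 0.372) had the lowest p of all members, and was -0.80 without control replicate 2 (adjusted p = 0.0325) and -1.43 without control replicate 1. It made up 1.82% and 1.76% of enolase FPKM in the DMF libraries and 2.75% and 2.68% in the controls, so that the muscle form took a smaller part whichever control was used. Eno1 supplied most of the enolase transcript, at 315 and 326 FPKM in the DMF libraries, against 385 and 638 FPKM in the controls (0.0084 on the log2 scale under quantile normalization), and Eno2 was at 10.9 and 11.4 against 12.9 and 14.4 FPKM in the same order. The 50-base stretches of Eno1 were shared with other genes for 49.5%, those of Eno3 for 0%, so the Eno1 value is less certain than that of Eno3.

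Aldolase showed the same arrangement on a smaller scale. Aldoc (ENSMUSG00000017390, GRCm38 chr11:78322968-78327781, plus strand), the brain form, was at 3.73 and 4.05 FPKM in the DMF libraries, against 5.91 and 8.62 FPKM in control replicates 1 and 2 (log2 difference -0.74 ± 0.23, SE, adjusted p = 0.490). Aldoa, the muscle and general form that made up at least 98.5% of the pair in every library, was at 371 and 368 FPKM in the DMF libraries, against 392 and 654 FPKM in the controls, with a log2 difference of -0.45 that was 0.18 under quantile normalization. Aldoc was 0.996% and 1.09% of the pair in the DMF libraries, below 1.48% and 1.30% in the controls. Without control replicate 2 its log2 difference was -0.50, which did not pass (adjusted p = 0.0877). The second Aldoa row lay below 1 FPKM in every library and was not tested.

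**Figure D3:**
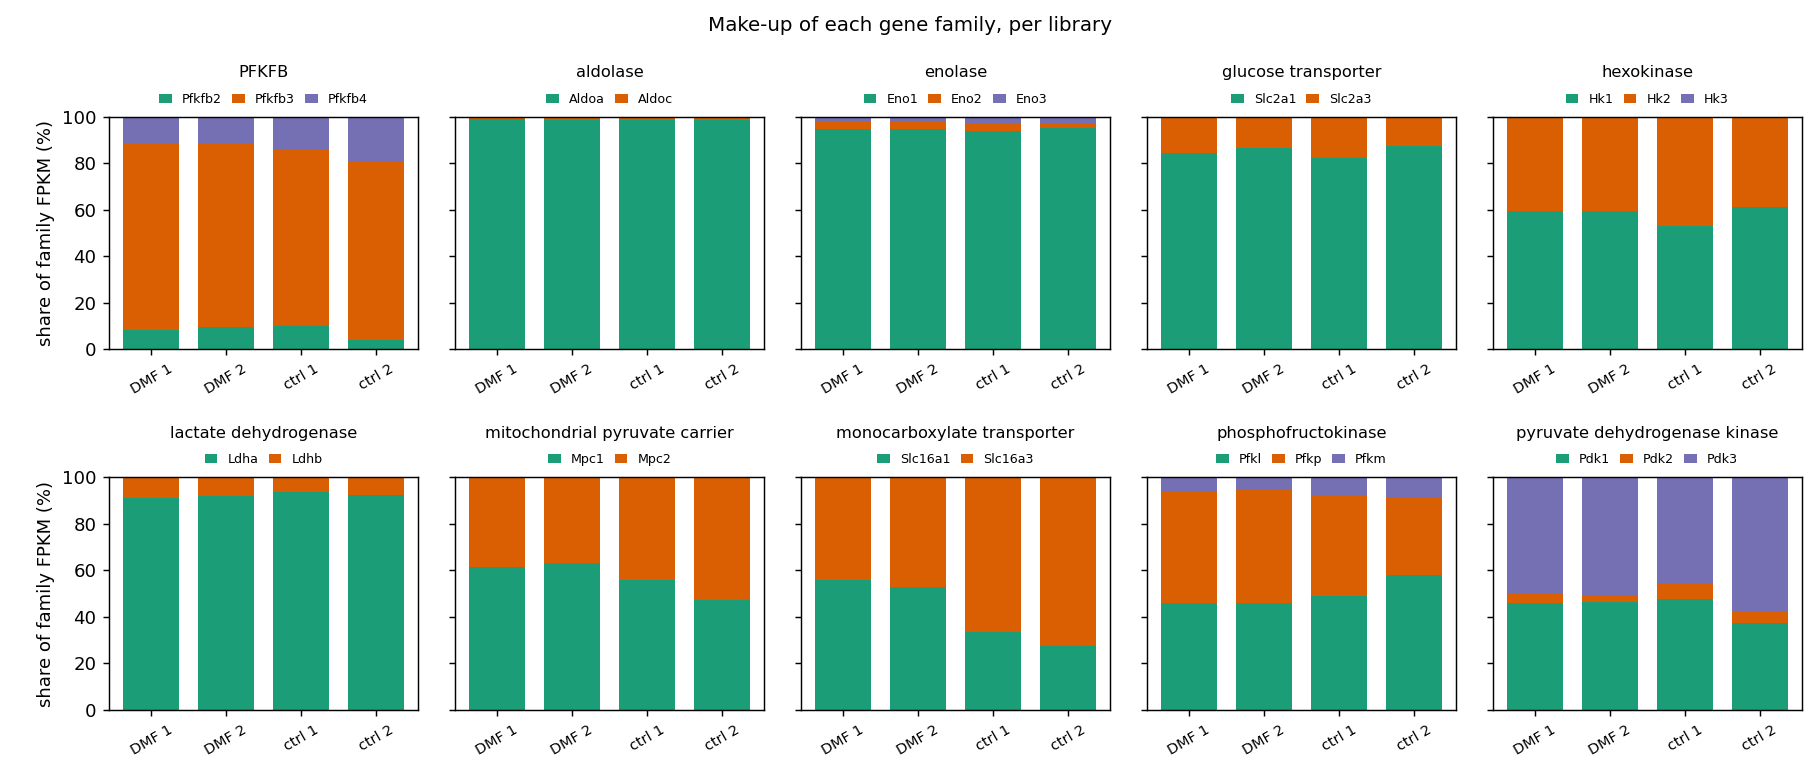
Share of each gene in the summed FPKM of its family, in percent, with 1 bar per library (DMF 1 and DMF 2 left, control 1 and control 2 right). The Slc16a1 part of the monocarboxylate transporter bars is larger in both DMF libraries (55.9% and 52.8%) than in the controls (33.3% and 27.6%), while the Ldha, Aldoa and Eno1 parts fill at least 91.3% of their bars throughout.

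The other abundant steps of the central chain lay below both controls as deposited, but their log2 differences turned positive under quantile normalization, at 0.12 for Tpi1, 0.49 for Pgk1, 0.43 for Pgam1 and 0.26 for Pkm. Tpi1, triose phosphate isomerase, was at 291 and 283 FPKM in the DMF libraries, against 323 and 514 FPKM in control replicates 1 and 2. Pgk1, phosphoglycerate kinase, was at 552 and 562 against 565 and 723 FPKM in the same order, and Pgam1, phosphoglycerate mutase, at 248 and 259 against 265 and 272 FPKM. Pkm, pyruvate kinase, was at 501 and 493 FPKM in the DMF libraries, against 579 and 783 FPKM in the controls. For these 4 genes the gap to control replicate 1 was the smaller and the gap to control replicate 2 the larger. Pseudogenes share 68.0% of the 50-base stretches of Pgk1 and 41.5% of those of Pgam1, so these levels are less certain. Gpi1, glucose-6-phosphate isomerase, at 59.7 and 61.9 FPKM in the DMF libraries, overlapped the controls at 61.2 and 96.3 FPKM.

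Summed over the 17 core enzyme genes from the hexokinases to pyruvate kinase, the level was 2583 and 2556 FPKM in the DMF libraries, against 2786 and 3878 FPKM in control replicates 1 and 2. The means were 2569 ± 19.3 FPKM in the DMF libraries and 3332 ± 772 FPKM in the controls (SD, n = 2 each), a ratio of 0.771 with an exact permutation p of 0.333, the smallest possible. The difference of -763 FPKM came to -217 with control replicate 2 left out and to -1308 with control replicate 1 left out. The 17 genes took 1.06% and 1.05% of all reads in the DMF libraries, against 1.11% and 1.29% in the controls. Most of the difference in sum thus came from the library that also held the high share of ribosomal protein reads, and the part of that library's composition in the result was not tested.

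**Figure D4:**
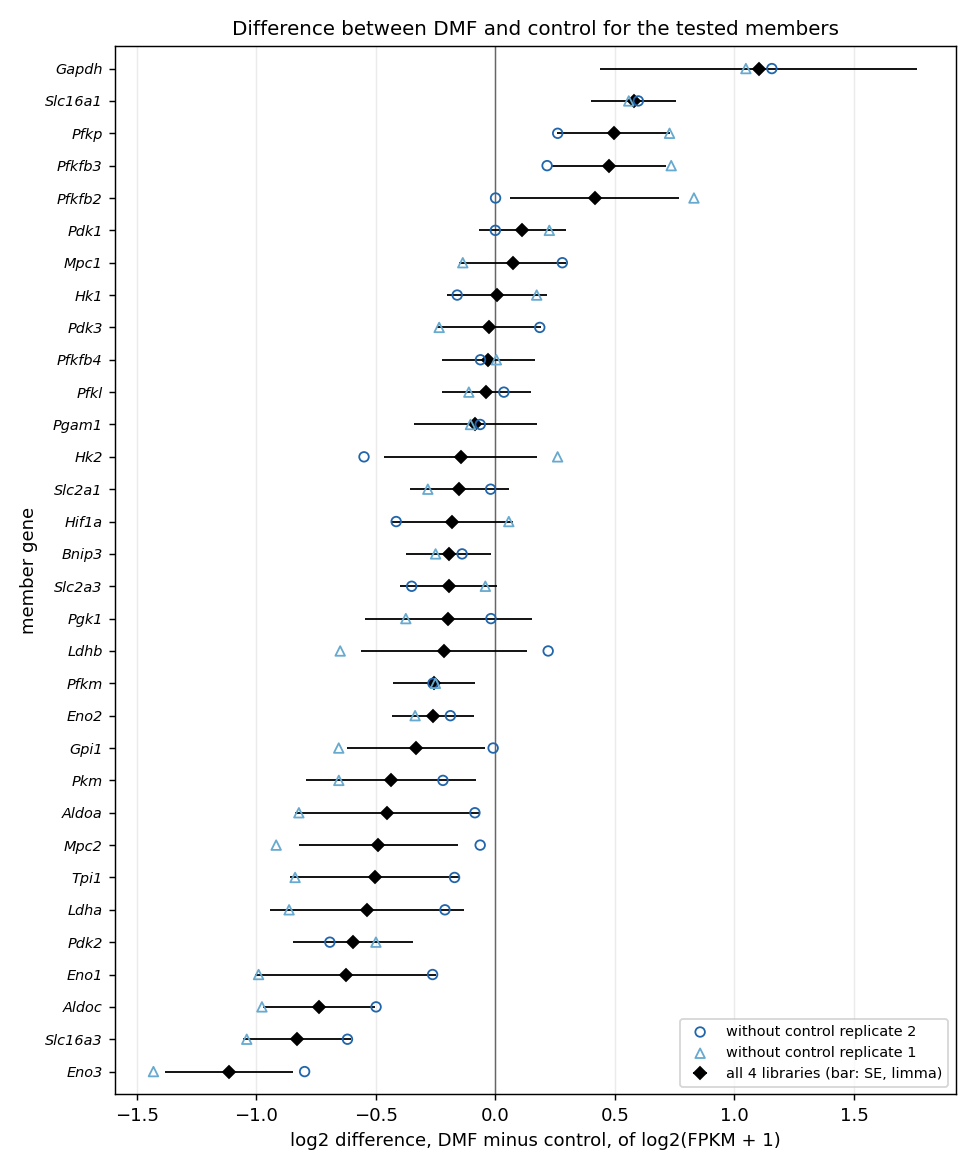
Log2 difference, DMF minus control, of each tested member on the log2(FPKM + 1) scale: black diamonds with SE bars use all 4 libraries, circles leave out control replicate 2 and triangles leave out control replicate 1. Circle and triangle lie on opposite sides of 0 for Hk2 (-0.55 and 0.26), and both lie on 1 side and away from 0 for Slc16a3, Eno3, Aldoc and Slc16a1.

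Phosphofructokinase commits sugar to glycolysis. Pfkp, the platelet form, was at 48.6 and 49.9 FPKM in the DMF libraries, above control replicates 1 and 2 at 40.9 and 29.3 FPKM. Pfkl, the liver form, was level with the controls, at 46.9 and 47.5 FPKM in the DMF libraries and 46.1 and 51.1 FPKM in the controls, and Pfkm, the muscle form, lay below them at 6.40 and 5.69 FPKM, against 7.43 and 7.37 FPKM. By FPKM, Pfkp took 47.7% and 48.4% of the family in the DMF libraries and was narrowly its leading form there. In the controls it took 43.4% and 33.4%, and Pfkl led. By reads, Pfkp took 66.1% and 66.5% in the DMF libraries, against 62.3% and 51.8% in the controls, and led in every library. The change of leading form thus rested on the deposited gene lengths. The log2 difference of Pfkp was 0.49 ± 0.24 (SE, adjusted p = 0.561), 0.26 without control replicate 2 and 0.14 with the trend on gene length removed. Pfkp has the longest deposited gene model of the members, 13401 bases, and control replicate 2 was low for long genes throughout the table: its median gap to the other libraries was 0.75 in the length group of 579 to 1444 bases and -0.63 in that of 8933 to 40491 bases. The gap of Pfkp was -0.64. Other members lay far from their length group, such as Mpc2 with a gap of 0.90 against a group median of -0.40, and the part of gene length in the Pfkp value was not tested. Pfkp shares 15.4% of its 50-base stretches with 1 other gene. Pitrm1 overlaps it by 748 bases on the opposite strand, with 1728 and 1637 reads in the DMF libraries, against 1115 and 627 in the controls. Use of strand is not given, and the part of this overlap was not tested.

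PFKFB enzymes make and break fructose 2,6-bisphosphate, the activator of phosphofructokinase. Pfkfb3, the form with high kinase activity, was at 14.1 and 14.3 FPKM in the DMF libraries, above the controls at 12.1 and 8.13 FPKM (log2 difference 0.48 ± 0.24, SE, adjusted p = 0.561), and led the family in all 4 libraries. Leaving out control replicate 2 lowered its difference to 0.22, and leaving out control replicate 1 gave 0.74. Pfkfb4 was at 2.01 and 2.08 FPKM in the DMF libraries, level with 2.18 and 2.03 FPKM in the controls. Pfkfb2 was at 1.47 and 1.71 FPKM in the DMF libraries, against 1.59 and 0.455 FPKM in control replicates 1 and 2, a difference that came from control replicate 2. Both genes were low, so their ratios carry more counting error than those above.

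Glucose uptake showed little movement. Slc2a1, which encodes the main activation-induced transporter GLUT1, was at 57.1 and 57.4 FPKM in the DMF libraries, against 58.1 and 69.8 FPKM in control replicates 1 and 2, a log2 difference of -0.15 ± 0.21 (SE, adjusted p = 0.710). It was below both controls, but by only -0.02 on the log2 scale without control replicate 2, and the difference was 0.14 under quantile normalization. Slc2a3, which encodes the high-affinity GLUT3, was at 10.3 and 8.89 FPKM in the DMF libraries, overlapping 12.5 and 9.89 FPKM in the controls. With 2 libraries per group an SE of 0.21 leaves differences of that size undetectable.

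The main hexokinases and Hif1a gave opposite signs with each control. Hk2, the inducible hexokinase and a HIF-1 target, was at 25.1 FPKM in each DMF library, between control replicate 1 at 37.2 and control replicate 2 at 20.8 FPKM. Against control replicate 1 alone it was lower by the limma fit (-0.55, adjusted p = 0.0272), and against control replicate 2 alone it was higher (0.26, adjusted p = 0.0231). Hif1a was at 81.2 and 80.9 FPKM in the DMF libraries, again between the controls at 108 and 77.9 FPKM, with a log2 difference of -0.41 without control replicate 2 (adjusted p = 0.0277) and 0.06 without control replicate 1 (adjusted p = 0.296). No direction can be given for either from these 4 libraries. Hk1, the constitutive form, was at 37.7 and 37.3 FPKM in the DMF libraries, between 42.0 and 33.2 FPKM in the controls, and led the family in all 4 libraries. Hk3, a form of myeloid cells, did not reach the level needed for testing, with 21 and 10 reads in the DMF libraries and 6 and 5 reads in the controls.

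At the entry of pyruvate into mitochondria, Pdk2, a widely expressed pyruvate dehydrogenase kinase, was at 1.43 and 0.847 FPKM in the DMF libraries, against 2.43 and 2.00 FPKM in the controls (log2 difference -0.60 ± 0.25, SE, adjusted p = 0.549). The more abundant kinases overlapped between groups: Pdk1, a HIF-1 target, was at 17.8 and 17.6 FPKM in the DMF libraries and 17.7 and 15.0 FPKM in the controls. Pdk3 was at 19.4 FPKM in each DMF library, between the controls at 16.9 and 23.0 FPKM. It was the leading form by mean share of FPKM, and Pdk1 that by reads. The pyruvate carrier needs both of its subunits. Mpc1 was at 7.87 and 9.18 FPKM in the DMF libraries, overlapping 6.83 and 9.45 FPKM in the controls, and Mpc2 was at 4.93 and 5.35 FPKM, below 5.41 and 10.6 FPKM in the controls. Pseudogenes share 14.8% of the stretches of Mpc1, and an overlapping transcript of the opposite strand shares 12.1%. Those pseudogene rows held 624 and 654 reads in the DMF libraries, against 620 and 546 in the controls. The Mpc1 row held fewer, 300 and 357 against 252 and 274 in the same order, so its level is uncertain. Bnip3, a mitophagy receptor induced by HIF-1, was at 28.6 and 26.7 FPKM in the DMF libraries, against 30.5 and 33.1 FPKM in the controls, and shares 59.1% of its stretches with other genes.

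Gapdh, the enzyme step that fumarate esters are known to modify as a protein, could not be read from this table in the usual way. It was at 58.2 and 14.8 FPKM in DMF replicates 1 and 2, against 12.7 and 13.8 FPKM in control replicates 1 and 2, far under its neighbours in the pathway, Tpi1 and Pgk1. Its 4405 and 1144 reads in the DMF libraries, against 933 and 795 in the controls, gave a log2 difference of 1.10 ± 0.66 (SE, adjusted p = 0.561). That difference rested on DMF replicate 1: it was 0.15 without that library and 2.05 without DMF replicate 2. The DMF libraries differed 3.93-fold for Gapdh, a log2 gap of 1.90 that only 53 of the 12166 tested genes exceeded, whereas the widest gap between them for any other member was 0.40.

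The cause of the low level and of the gap was not tested. Of the 1943 different 50-base stretches in annotated Gapdh transcripts, 58.4% also occur in transcripts of 222 other genes, 213 of them annotated pseudogenes. Pgk1 shares 68.0% of its stretches with pseudogenes, and was at 552 and 562 FPKM in the DMF libraries. Its pseudogene rows held 92 and 98 reads there, against 92 and 91 in the controls. The start of the Gapdh coding sequence (GENCODE M21 transcript, minus strand of chromosome 6) is shown with its start codon in capitals.
Gapdh: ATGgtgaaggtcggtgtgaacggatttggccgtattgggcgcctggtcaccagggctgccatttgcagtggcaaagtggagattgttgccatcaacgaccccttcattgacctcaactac
The pseudogene Gm7336 on chromosome 7 has the same letters over all 999 coding bases, with 0 mismatches, and Gm5559 on chromosome 5 and Gm12070 on chromosome 11 have 1 mismatch each. A read of this stretch can be placed in any of these genes. Gm7336 held 675 and 743 reads in the DMF libraries, against 727 and 881 in the controls. All Gapdh pseudogene rows together held 1624 and 1685 reads in the DMF libraries, against 1653 and 2101 in the controls, so the excess of DMF replicate 1 appeared in the Gapdh row and not in its copies. Adding the pseudogene reads to Gapdh gave 79.7 and 36.7 FPKM in the DMF libraries, against 35.3 and 50.3 FPKM in the controls, and the groups then overlapped. The deposited Gapdh length of 4133 bases, against 1420 bases for its longest coding transcript, also lowers its FPKM. How reads that match several places were counted is not given in the sources used here, and Gapdh is reported as uncertain.

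**Figure D5:**
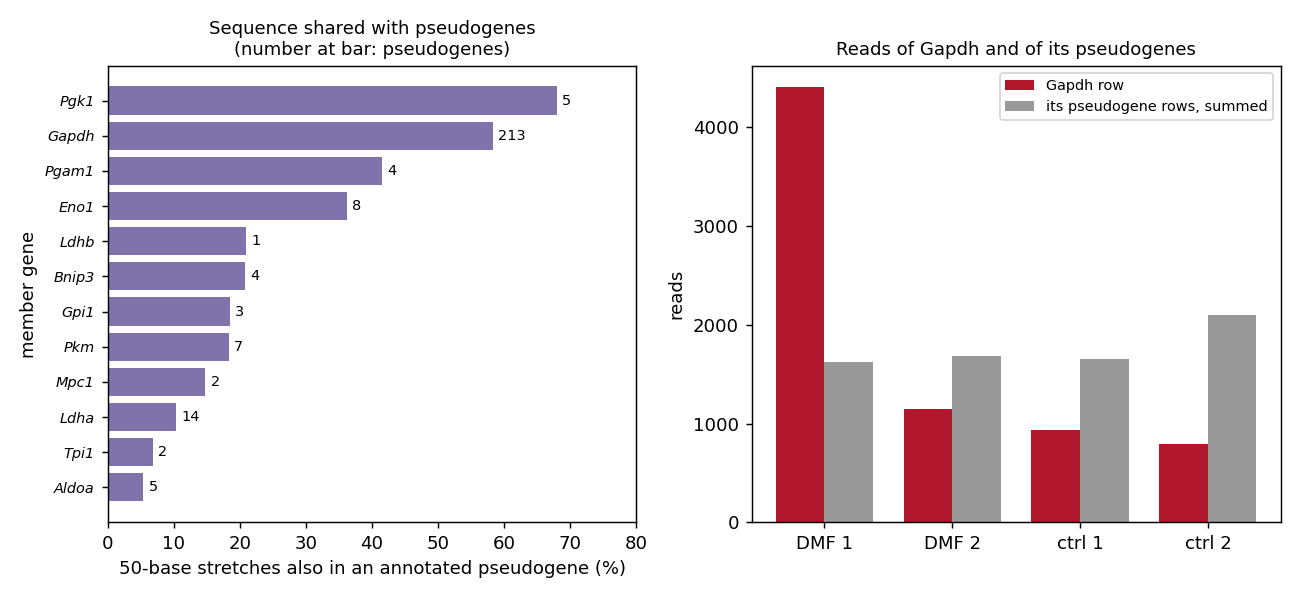
Left, percent of each member's 50-base transcript stretches that also occur in an annotated pseudogene, with the number of such pseudogenes at the bar, for members above 1%. Right, reads of the Gapdh row (red) and of its pseudogene rows summed (grey) in each library; the red bar stands out in DMF replicate 1 with 4405 reads, while the grey bars lie between 1624 and 2101.

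HIF-1 is held in check by prolyl hydroxylases that mark its alpha subunit for the VHL ubiquitin ligase. In a list of 24 HIF-1 pathway genes, 22 were tested, 8 lay below both controls and 3 above, against 26.8% and 26.4% of all tested genes, with 0 called. The median was -0.05, and leaving out control replicate 2 gave -0.08, leaving out control replicate 1 gave -0.19. Egln3, which encodes the hydroxylase PHD3 and is itself switched on by HIF-1, was at 23.6 and 23.4 FPKM in the DMF libraries, against 50.4 and 51.0 FPKM in control replicates 1 and 2, with tight replicates on both sides. Its log2 difference was -1.08 ± 0.17 (SE, adjusted p = 0.226) with all libraries and -1.07 without control replicate 2 (adjusted p = 0.0193). Egln2, a further hydroxylase, was at 21.9 and 21.7 FPKM in the DMF libraries, against 26.7 and 39.8 FPKM in the controls. Elob, a subunit of the VHL complex, was at 101 and 98.2 FPKM in the DMF libraries, against 116 and 322 FPKM in the controls. Rptor, a subunit of mTORC1, was at 7.73 and 7.24 FPKM in the DMF libraries, against 6.67 and 4.16 FPKM in the controls.

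Among 29 HIF-1 targets outside glycolysis, 25 were tested, of which 12 lay below both controls and 5 above, against 26.8% and 26.4% of all tested genes, with 0 called. The median was -0.16, and leaving out control replicate 2 gave -0.06, leaving out control replicate 1 gave -0.24. Mxi1, an antagonist of Myc, was at 3.70 and 3.78 FPKM in the DMF libraries, against 9.27 and 9.54 FPKM in the controls (log2 difference -1.13 ± 0.17, SE, adjusted p = 0.209). Bhlhe40, a transcription factor of activated T cells, was at 52.9 and 52.8 FPKM in the DMF libraries, against 82.7 and 83.9 FPKM in the controls, and Nfil3, another transcription factor, at 3.51 and 4.92 against 7.80 and 10.1 FPKM in the same order. Hmox1, the heme oxygenase that Nrf2 also drives, lay the other way, at 13.4 and 13.7 FPKM in the DMF libraries, against 7.18 and 10.5 FPKM in the controls. Without control replicate 2, Mxi1 (adjusted p = 0.0273) and Bhlhe40 (adjusted p = 0.0203) were called lower and Hmox1 (adjusted p = 0.0260) higher. Targets thus lay on both sides, as the members did, with Slc16a3 below the controls and the overlapping Hk2 and Pdk1 between or beside them.

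Markers of other cell types were set beside these differences, with 0 of them called. All 5 tested markers of CD8 T and NK cells, of 10 listed, lay below both controls, against 26.8% of all tested genes. The list summed to 13.8 and 14.4 FPKM in the DMF libraries, against 134 and 205 FPKM in the controls. Ncr1 and Klrb1c were listed at 0 in all 4 libraries. Gzmb, which activated CD4+ T cells also express, made up most of the control sums, at 5.14 and 5.82 FPKM in the DMF libraries, against 98.1 and 131 FPKM in the controls. Cd8a was at 0.105 and 0.0589 FPKM in the DMF libraries, against 1.68 and 2.17 FPKM in the controls. Of 8 tested B cell markers, of 10 listed, 5 lay above both controls and 1 below, against 26.4% and 26.8% of all tested genes. The list summed to 91.8 and 90.3 FPKM in the DMF libraries, against 83.7 and 125 FPKM in the controls. Ighm, the 1 marker below, made up most of these sums, at 62.7 and 62.4 FPKM in the DMF libraries, against 71.6 and 107 FPKM in the controls. The 10 myeloid markers summed to 6.66 and 3.66 FPKM in the DMF libraries, against 6.47 and 9.93 FPKM in the controls, and the 6 erythroid markers to 1.51 and 2.82 FPKM, against 0.549 and 1.01 FPKM. In bulk RNA, fewer cells of a type and less RNA per cell cannot be told apart, and the part of other cells, or of the lower T cell markers, in the values of Slc16a3, Emb, Eno3 or Egln3 was not tested.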

How the data were processed

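RNA-seq libraries of 4 samples, 2 per group, were used. Per the file headers, the authors deposited FPKM values in 1 table that also lists each gene's name, position and length. The tool edgeR, with no role stated, and the build mm8 stand in the submitters' processing notes. Coordinates are given as GRCm38, since 33 of the 34 member rows (and 98.33% of 54409 identifiers) have those of GENCODE M21; Pgam1 differs. Aligner, counting program and use of strand: not given in the sources used here. FPKM times gene length, scaled by the library size that the values imply, gave whole reads for 100% of values (within 0.01). By counting error alone, 0 reads allow up to 3.

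Members were tested with limma 3.58.1 in R 4.3.3 (eBayes with a trend, two-sided) on log2(FPKM + 1) of 12166 genes whose mean FPKM reached 1, Benjamini-Hochberg over all of them, threshold 0.05; differences of low genes are understated on this scale. It was tested on simulated data in which all libraries had the same low noise. That test does not show how the fit performs with controls as far apart as these. Family shares and sums had exact permutation tests (scipy 1.17.1). Replicates of a group differed by more than counting noise (chi-square per degree of freedom 3.71 in DMF and 164 in control). Named genes were members with an unadjusted p under 0.05 or a log2 difference of at least 1 in size, fixed members (Gapdh, Hif1a, Ldha, Ldhb and the glucose transporters and hexokinases), family leaders, and up to 4 genes per list with the smallest p; further members are described because every member is accounted for. Members, lists and tests were chosen with earlier results of these data known. Shared sequence was counted as 50-base stretches found in GENCODE M21 transcripts of other genes, in either direction. Alternatives were pseudocounts, filters, scalings, voom, removal of the length trend (loess, span 0.3), the replicate block and each library left out.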

Additional observations from a re-analysis of the deposited data

How the results depend on the processing

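The number of genes called, 0 with all libraries, was 1034 with no filter on low values, and 6 to 7420 with 1 library left out, lowest without DMF replicate 2 and highest without control replicate 1. Same-numbered libraries did not deviate together (correlation -0.02 over genes) and share only a number; with that replicate block it was 552 (4.54% of those tested), of which Eno3 was the 1 member. No filter also called Eno3 (adjusted p = 0.0142) and Gapdh (adjusted p = 0.0269), 2 of 34 member rows (5.88%), against 1.9% of all 54532 rows. That fit also takes in rows at or near 0 FPKM. With the filter the limma adjusted p of Gapdh was 0.561, and its difference rested on DMF replicate 1. The members below both controls numbered 8 under quantile normalization and 10 both for recovered reads over their own total and for voom; those above numbered 10, 8 and 8 in that order, 7 with the gene length trend removed, and 5 to 9 with 1 library left out. The members' median was 0.11 under quantile normalization, -0.032 for recovered reads and -0.033 for voom, and -0.25 to -0.075 with 1 library left out; reads over their own total moved the median of all genes to 0.12, and voom to 0.15. Under quantile normalization the sign turned for Hif1a (0.14), Ldha (0.16), Ldhb (0.10), Slc2a1 (0.14), Pfkl (0.22), Aldoa (0.18), Tpi1 (0.12), Pgk1 (0.49), Pgam1 (0.43), Eno1 (0.0084), Pkm (0.26) and Pdk3 (0.075). For recovered reads and for voom it turned for Slc2a1 (0.012 in both), Hk2 (0.014 and 0.018), Pfkl (0.13 in both), Pfkfb4 (0.081 and 0.12), Pgam1 (0.082 in both) and Pdk3 (0.13 and 0.14), and with the length trend removed for Ldhb (0.13), Hk1 (-0.21), Pgk1 (0.061), Pgam1 (0.23), Pdk1 (-0.071), Bnip3 (0.060) and Pdk3 (0.20). With 1 library left out the sign turned for Hif1a (-0.41 to 0.056), Ldhb (-0.65 to 0.22), Hk1 (-0.16 to 0.17), Hk2 (-0.55 to 0.26), Pfkl (-0.11 to 0.036), Pfkfb4 (-0.062 to 0.0042), Pdk1 (-0.00019 to 0.23), Pdk3 (-0.24 to 0.19) and Mpc1 (-0.14 to 0.28). The cause of these changes was not tested. Slc16a3 (-1.04 to -0.60), Eno3 (-1.43 to -0.79), Aldoc (-0.98 to -0.50) and Slc16a1 (0.50 to 0.76) kept their direction under all 15 alternatives run. Since the groups did not overlap for these genes, leaving out a library, pseudocounts, filters and the replicate block could not turn the sign. Only the scalings, voom and removal of the length trend could have turned it. The hexokinase shares have no value with the length trend removed, since Hk3 was not tested. With 2 libraries a group, differences below the SE, such as those of Slc2a1 or Pgam1, could not be resolved.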
